A study of Zea mays with 6 samples.

Results

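The maize embryo sac, or female gametophyte, was compared 14 to 16 h after pollination with embryo sacs whose label names no pollination, called unpollinated here. Of the 6 RNA sequencing libraries in the series, 4 entered the comparison: 2 of pollinated embryo sacs (PES) and 2 of unpollinated embryo sacs (ES). The other 2 libraries came from the nucellus (NU), the ovule tissue that surrounds the embryo sac. For some genes their levels are given beside those of the embryo sacs. All 6 came from the inbred line Q319. Embryo sacs were released from ovule slices by enzymatic digestion, and poly(A) RNA was sequenced. The labels name 2 biological replicates per tissue, but not how many plants or embryo sacs each holds, and give neither the age of the unpollinated ovules nor a time of day, so pollination cannot be told apart from these. The series addresses the meeting of embryo sac and pollen tube.

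The embryo sac holds the egg cell and synergids at one end, the central cell in the middle and, in maize, many antipodal cells at the other end. The synergids secrete small proteins that attract the pollen tube, one of them degenerates as the tube bursts, and the sperm fuse with the egg and the central cell. The zygote and the primary endosperm that follow stay within the same wall, so a pollinated embryo sac can hold the fertilised cells, the antipodals and what a pollen tube left behind. In these bulk samples, fewer cells of a type and less RNA per cell cannot be told apart.

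The uniquely mapped reads of all transcript models of a gene were summed, and a model absent from a table counted as 0. The genes tested below held 2524458 and 2663778 reads in pollinated embryo sacs, 3234883 and 2998159 reads in unpollinated embryo sacs, and 2973520 and 3163661 reads in nucellus. Levels are given in CPM, reads scaled to a common library size, on library sizes scaled by the trimmed mean of M-values (TMM); 1 read was worth 0.49 to 0.506 CPM in pollinated and 0.353 to 0.379 CPM in unpollinated embryo sacs. Changes are log2, pollinated minus unpollinated, with their standard error, and p-values are from edgeR's quasi-likelihood test with Benjamini-Hochberg adjustment over all genes tested. A gene is said to have risen or fallen only at an adjusted p under 0.05 and a log2 change of at least 1 in size.

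Of 31057 genes with a read in any library, 18204 passed the filter on low counts. After pollination 2389 of them rose (13.1%) and 3321 fell (18.2%). These percentages are the background for every gene group below, and the median log2 change of all genes tested was -0.05. The libraries of the 2 groups did not overlap for 2383 of the risen and 3312 of the fallen genes. The call itself nearly requires such a gap, so these counts are a description and add no support. A further 3702 genes had an adjusted p under 0.05 with a smaller change. Changes of at least 8-fold, a log2 change of 3, were seen for 365 risen and 801 fallen genes. Scaling by total counts in place of TMM moved the median to -0.23, with 1876 genes higher and 3999 lower, so the split of calls depends on the scaling: 41.8% were higher with TMM and 31.9% with total counts.

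The risen genes took 23.1% and 23.9% of the reads in pollinated embryo sacs, against 8.55% and 8.26% in unpollinated ones. The fallen genes took 4.71% and 4.51% of the reads in pollinated embryo sacs, against 16.8% and 16.9% in unpollinated ones. A typical risen gene had 28.2 CPM in pollinated and 7.85 CPM in unpollinated embryo sacs, with 6.10 CPM in nucellus, as medians over genes. A typical fallen gene had 2.75 CPM in pollinated and 11.2 CPM in unpollinated embryo sacs, with 10.6 CPM in nucellus. Without a single read in unpollinated embryo sacs were 53 of the risen genes, 13 of them at 10 CPM or more after pollination. Without a read in pollinated embryo sacs were 243 of the fallen genes, 9 of them at 10 CPM or more before.

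Falls were more frequent in genes with several transcript models. Among the 12888 tested genes with 1 model, 15.6% rose and 16.5% fell. Among the 457 with 4 or more models, 3.72% rose and 39.4% fell. The tables differed in the same direction in how many models they list: of 1080 genes with more than 1 model and at least 50 reads in every embryo sac library, a single model was listed for 47.2% in both pollinated tables, for 27.9% and 26.9% in the unpollinated tables, and for 21.4% and 20.9% in the nucellus tables. Equal numbers of reads also covered more of a model after pollination: over models of 1000 to 2000 bases with 20 to 39 reads, the median share of the model covered was 42.8% in both pollinated libraries, 38.3% and 37.4% in the unpollinated libraries and 31.0% and 30.3% in nucellus. The part of these differences in the falls was not tested. Counts for single-model genes are therefore given beside the gene groups below.

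The level of a gene also went with its direction. Among single-model genes below 3 CPM, 5.47% rose and 28.4% fell, whereas at 300 CPM or more 23.9% rose and 6.92% fell. Of the 8357 single-model genes at 10 CPM or more, 16.1% rose and 11.5% fell. The filter on low counts asked for reads in as many libraries as a group holds, whichever these were. A gene of low mean level can thus have passed only through the group where it was high, nucellus included. The part of the filter in the split at low levels was not tested, so that split is a description.

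**Figure D1:**
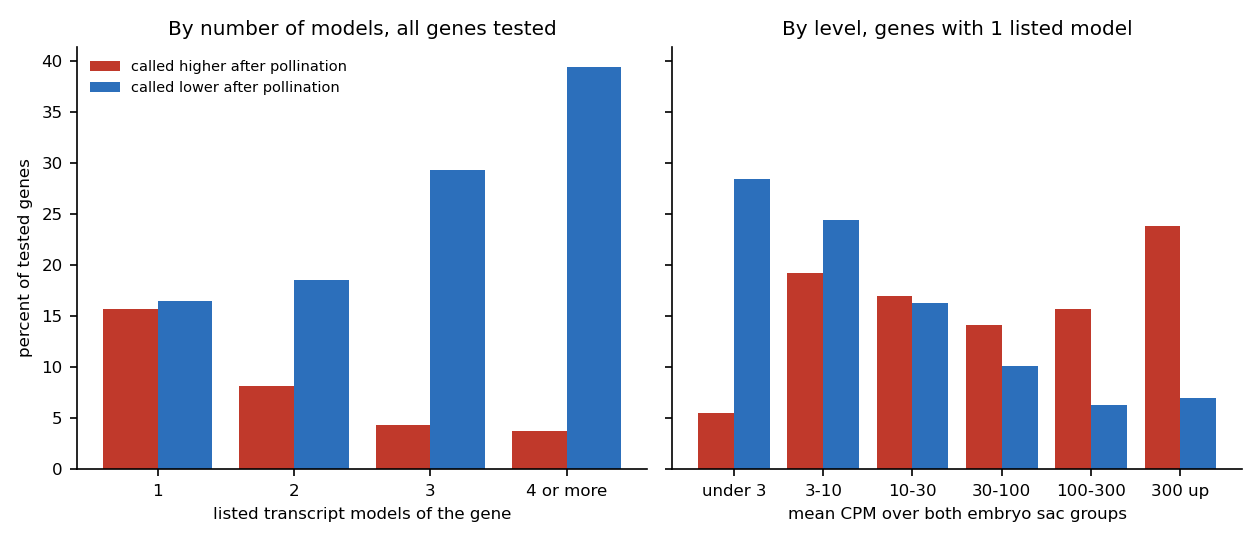
Percent of tested genes that rose or fell after pollination (y axis), by the number of transcript models per gene in one panel and, for genes with 1 model, by mean level in CPM in the other. Falls reach 39.4% in genes with 4 or more models and 28.4% in single-model genes below 3 CPM.

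**Figure D2:**
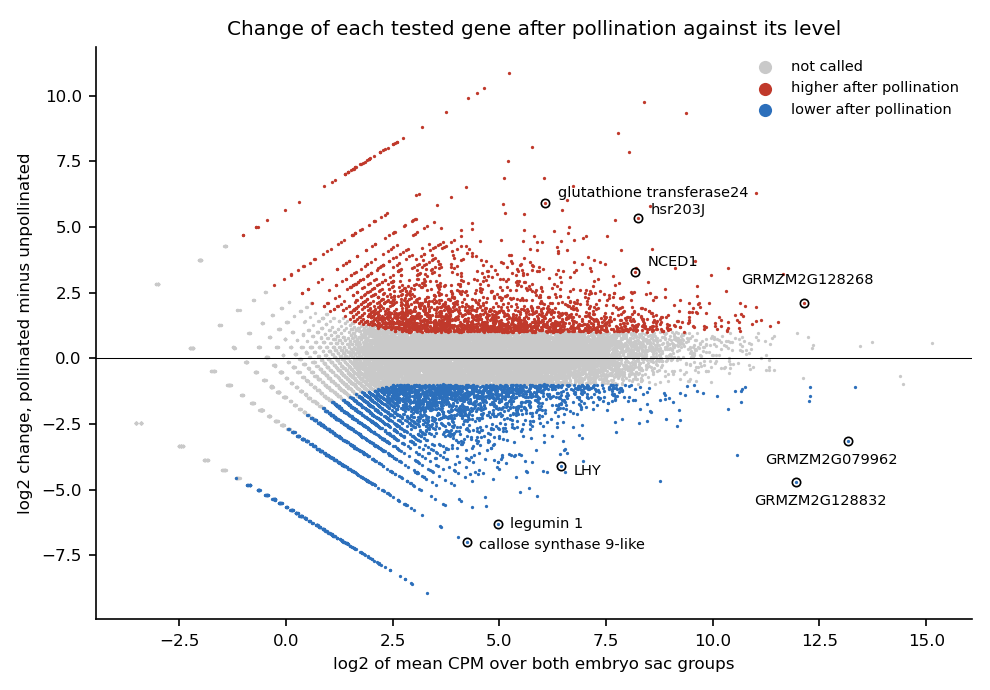
Log2 change of each tested gene, pollinated minus unpollinated (y axis), against the log2 of its mean CPM over the embryo sac libraries (x axis), each point being 1 gene and the called genes coloured. The 53 tested genes with no embryo sac read are not drawn; large falls lie mostly at low levels and the larger rises extend to genes of high level.

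The tissue label was read from genes known in the embryo sac. Of 11 such genes, all were tested, none rose, and the one that fell was MEG1, whose name comes from maternally expressed genes of the early endosperm. The embryo-sac basal-endosperm layer gene GRMZM2G087766 had 505 and 449.6 CPM in pollinated against 271 and 242 CPM in unpollinated embryo sacs and no read in nucellus. Its libraries did not overlap, but its log2 change of 0.89 ± 0.11 stayed under the threshold of size. It was the highest of the 11, whose log2 changes ran from -2.33 to 0.89 with a median of 0.23. The di-SUMO-like gene GRMZM2G006324 was lower without a call, at -0.76 ± 0.19. GRMZM2G129157, which shares the description of GRMZM2G087766, was at 0.16 ± 0.10. The 202 genes with at least 20 CPM in both unpollinated libraries and at most 1 read in each nucellus library were read as a wider set. The choice asked for a level in unpollinated embryo sacs only, so its sums are a description and no direction is read from them. All 202 had reads after pollination, and they summed to 23604 and 23299 CPM in pollinated against 26714 and 24832 CPM in unpollinated embryo sacs.

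Markers of other tissues were read beside these. For 8 genes with at least 20 CPM in both nucellus libraries and at most 1 read in each unpollinated library, the summed level in pollinated embryo sacs was 9.11 and 7.35 CPM, which is 2.62% and 2.11% of the nucellus mean, against 290 and 406 CPM in nucellus. Their unpollinated level was held near 0 by that choice and is not compared. Most of the pollinated sum came from GRMZM2G105587, with 6.07 and 4.41 CPM, and 2 of the 8 had no read after pollination. Genes described by pollen, anther or male sterility terms numbered 26, of which 9 were tested and 5 had no read in pollinated embryo sacs. They summed to 311 and 334 CPM in pollinated, 271 and 284 CPM in unpollinated embryo sacs and 255 and 277 CPM in nucellus. The one that rose, anther-specific protein SF18 (GRMZM2G079638), had 24.3 and 16.2 CPM in pollinated, 0.706 and 1.90 CPM in unpollinated embryo sacs and 15.5 and 16.8 CPM in nucellus. Among the untested members, 4 genes had reads in both pollinated libraries and none in the other 4 libraries, and they were picked out after their values were seen. GRMZM2G089699, a beta-expansin with a pollen allergen name, had 4 and 3 reads, GRMZM2G139513 had 3 and 3 reads, and GRMZM2G060937 and GRMZM2G139517 had 2 and 1 reads each, the last 3 being described as pollen allergen Phl p 2. Other untested allergen members went the other way. GRMZM2G079574 (Phl p 2) had 1 and 0 reads in pollinated against 3 and 4 reads in unpollinated embryo sacs. GRMZM2G148064 (Phl p 11) had 2 and 2 reads in pollinated against 16 and 7 reads in unpollinated ones. A search for epidermis, integument, vascular and nucellus terms gave 6 genes, and none of the 5 tested was called. They were wax synthases, xylem proteinases, a phloem-specific lectin and bearded-ear1, and no description names epidermis, integument or nucellus. These 6 summed to 84.0 and 102 CPM in pollinated and 66.7 and 56.9 CPM in unpollinated embryo sacs, against 142 and 209 CPM in nucellus. Most of each embryo sac sum came from xylem serine proteinase 1 (AC196090.3_FG006), with 69.3 and 80.4 CPM in pollinated embryo sacs. In unpollinated ones it had 49.8 and 38.3 CPM, so the sums are not read as a level of other tissue. The part of nucellus or pollen RNA in the changes below was not tested.

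Genes with a described product that rose strongly are given one by one. A homologue of hsr203J (AC209636.2_FG003), a tobacco gene marking hypersensitive cell death, had 576 and 618 CPM in pollinated against 16.2 and 12.9 CPM in unpollinated embryo sacs. It was almost absent from nucellus, and its log2 change was 5.35 ± 0.16 (adjusted p = 1.29e-64). Glutathione transferase 24 (GRMZM2G032856), an enzyme that conjugates glutathione to reactive or foreign compounds, had 135 and 131 CPM in pollinated against 2.82 and 1.52 CPM in unpollinated embryo sacs. The groups were far apart, with a log2 change of 5.90 ± 0.27 (adjusted p = 4.28e-44). The tonoplast aquaporin TIP2.1 (GRMZM2G125023), a water channel of the vacuole membrane, had 15.7 and 16.2 CPM in pollinated against 0 and 0.758 CPM in unpollinated embryo sacs. It had no nucellus read, and the ratio of its levels was 43.6 (95% counting interval 11.6 to 368).

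A gene described as indeterminate growth1 (GRMZM2G011357) rose as well. The gene of that name encodes a LOB domain factor that limits nuclear divisions in the maize embryo sac. It had 172 and 212 CPM in pollinated against 5.29 and 6.83 CPM in unpollinated embryo sacs, with 25.5 and 36.8 CPM in nucellus. The embryo sac groups did not overlap, and the log2 change was 4.98 ± 0.20 (adjusted p = 1.58e-45). The polygalacturonase inhibitor GRMZM2G025105, of a class that blocks pectin-cutting enzymes, had 36.4 and 43.1 CPM in pollinated against 1.41 and 1.14 CPM in unpollinated embryo sacs, a log2 change of 4.92 ± 0.39 (adjusted p = 6.17e-23). CYP86A35 (GRMZM2G062151), in a cytochrome P450 family of fatty acid hydroxylases, had 15.2 and 15.2 CPM in pollinated against 0.706 and 0 CPM in unpollinated embryo sacs, and 10.7 and 10.8 CPM in nucellus. The ratio between the embryo sac groups was 41.5 (95% counting interval 11.0 to 351). A receptor kinase, GRMZM5G852177, had 15.7 and 15.2 CPM in pollinated against 0.706 and 0 CPM in unpollinated embryo sacs and none in nucellus, a ratio of 42.2 (95% counting interval 11.2 to 356). These intervals cover counting error only.

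**Figure D3:**
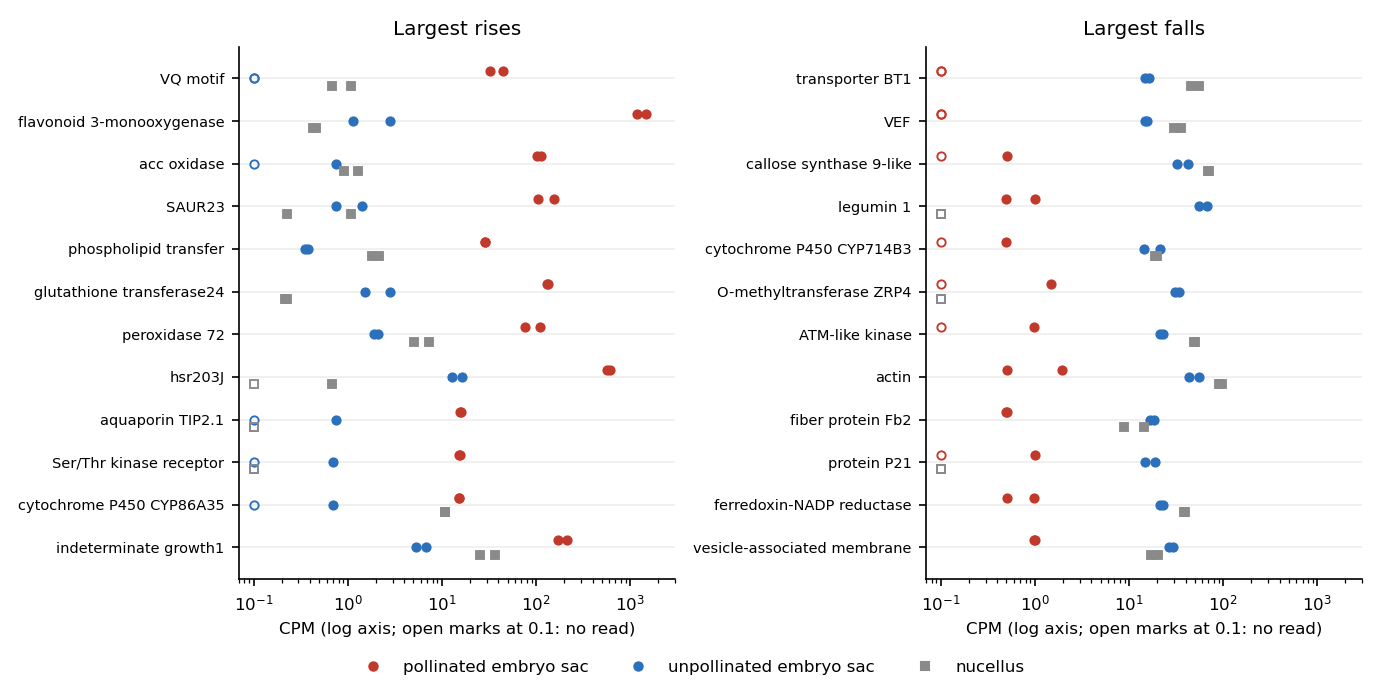
CPM (log axis) of the genes with the largest rises and the largest falls among those with an informative description, in pollinated, unpollinated and nucellus libraries, 1 mark per library; open marks at 0.1 stand for no read. In both panels the pollinated and unpollinated marks of a gene lie apart, and most of the fallen genes have nucellus levels near or above the unpollinated ones.

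Several of the largest rises had no protein name, and the 2 given here were chosen after their values were seen. GRMZM2G378762 had 103.7 and 47.1 CPM in pollinated embryo sacs and no read in the other 4 libraries. GRMZM2G135165 showed the same pattern, with 43.0 and 56.9 CPM in pollinated embryo sacs and none elsewhere. Of the 53 risen genes with no unpollinated read, 21 had none in nucellus either. Of the 243 fallen genes with no pollinated read, 3 had none in nucellus.

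WRKY transcription factors, zinc finger proteins that plants use in responses to wounding and pathogens, rose more often than they fell. Of 33 members, 23 were tested, 14 rose and none fell, against backgrounds of 13.1% and 18.2%, and their median log2 change was 1.31. Among the 15 with 1 model, 10 rose and none fell. GRMZM2G158328 had 151 and 184 CPM in pollinated against 6.71 and 8.34 CPM in unpollinated embryo sacs, with 28.7 and 30.4 CPM in nucellus. Both pollinated libraries exceeded the nucellus and the unpollinated ones, and the log2 change was 4.47 ± 0.20 (adjusted p = 2e-45). WRKY69 (GRMZM2G324999) had 251 and 258 CPM in pollinated against 36.7 and 39.1 CPM in unpollinated embryo sacs, a log2 change of 2.75 ± 0.14 (adjusted p = 2.38e-39). GRMZM2G174558 had 275 and 332 CPM in pollinated against 62.1 and 69.0 CPM in unpollinated embryo sacs, a log2 change of 2.21 ± 0.13. The lowest change among tested members was -0.04.

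Class III peroxidases, secreted enzymes that use hydrogen peroxide to cross-link cell walls, went both ways. Of 20 members 9 were tested, all with 1 model; 5 rose and 1 fell, with a median log2 change of 1.39. Peroxidase 12 (GRMZM2G103342) had 89.5 and 89.7 CPM in pollinated against 6.71 and 6.07 CPM in unpollinated embryo sacs, a log2 change of 3.80 ± 0.24 (adjusted p = 9.4e-31). A peroxidase 65 gene, GRMZM2G408963, had 121 and 129 CPM in pollinated against 35.6 and 46.6 CPM in unpollinated embryo sacs, a log2 change of 1.61 ± 0.15. The summed level of the list moved the other way, to 1401 and 1309 CPM in pollinated against 3595 and 3660 CPM in unpollinated embryo sacs, and 1 member made up most of that sum before pollination. Peroxidase 1 (GRMZM2G177792) had 208 and 231 CPM in pollinated against 2772 and 2888 CPM in unpollinated embryo sacs.

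Enzymes of the phenylpropanoid pathway, which makes lignin and flavonoids from phenylalanine, rose in 12 of 28 tested members and fell in 4, of 56 in all. The median log2 change was 0.39, and of 22 with 1 model 10 rose and 2 fell. Phenylalanine ammonia-lyase GRMZM2G118345, the entry enzyme, had 94.6 and 104 CPM in pollinated against 3.53 and 7.58 CPM in unpollinated embryo sacs. The groups did not overlap, and the log2 change of 4.17 ± 0.24 (adjusted p = 1.71e-33) was 4.80 without unpollinated replicate 2. Dihydroflavonol 4-reductase (GRMZM2G057328), of the anthocyanin branch, had 398 and 406 CPM in pollinated against 88.2 and 70.2 CPM in unpollinated embryo sacs, a log2 change of 2.34 ± 0.12 (adjusted p = 5.47e-38). Among the 4 that fell, a caffeoyl-CoA O-methyltransferase (GRMZM2G004138), of the lignin branch, had no read in pollinated and 8.47 and 8.34 CPM in unpollinated embryo sacs.

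Jasmonate is made from membrane lipids by lipoxygenase, allene oxide synthase and allene oxide cyclase, and its repressors carry a ZIM motif. The list also held genes described by wounding, a trigger of jasmonate synthesis. It took in genes described as lipoxygenase whether or not they act in jasmonate synthesis, which the descriptions do not give. Of its 33 genes 23 were tested, 10 rose and 1 fell, with a median log2 change of 0.90. Of 15 with 1 model, 6 rose and none fell. The lipoxygenase gene lox3 (GRMZM2G109130) had 85.5 and 96.1 CPM in pollinated against 8.12 and 11.8 CPM in unpollinated embryo sacs. It was close to 0 in nucellus, with a log2 change of 3.19 ± 0.22 (adjusted p = 4.99e-27). Allene oxide cyclase 1 (GRMZM2G077316) had 52.6 and 51.5 CPM in pollinated against 16.2 and 17.8 CPM in unpollinated embryo sacs, a log2 change of 1.61 ± 0.20. Pollinated levels of this gene did not exceed those of nucellus, at 54.0 and 66.8 CPM. A ZIM motif protein, GRMZM2G173596, had 439.6 and 357 CPM in pollinated against 185 and 154 CPM in unpollinated embryo sacs, a log2 change of 1.23 ± 0.11. Of the genes described by wounding, 2 wound induced proteins rose and a wound responsive protein, GRMZM2G006468, was the 1 that fell, at 4.55 and 5.39 CPM in pollinated against 15.9 and 16.7 CPM in unpollinated embryo sacs. A wound induced protein (GRMZM2G106445) had 121 and 116 CPM in pollinated against 12.4 and 9.86 CPM in unpollinated embryo sacs, with 34.0 and 58.8 CPM in nucellus. Its log2 change was 3.41 ± 0.21 (adjusted p = 9.35e-24).

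Genes of ethylene synthesis and response rose in 11 of 26 tested members and fell in 2, of 36 in all, with a median log2 change of 0.93. Of 22 with 1 model, 10 rose and none fell. ACC synthase (GRMZM2G164405), which makes the precursor of ethylene, had 78.9 and 72.6 CPM in pollinated against 5.65 and 11.4 CPM in unpollinated embryo sacs, a log2 change of 3.16 ± 0.24 (adjusted p = 3e-24). The unpollinated libraries differed among themselves but stayed far below the pollinated ones. On the response side, the ethylene-responsive element binding protein GRMZM2G103085 had 357 and 394 CPM in pollinated against 95.3 and 97.1 CPM in unpollinated embryo sacs, a log2 change of 1.97 ± 0.12 (adjusted p = 3.88e-32). The ethylene-responsive protein GRMZM2G059799 fell, to 4.55 and 2.94 CPM in pollinated against 13.4 and 14.0 CPM in unpollinated embryo sacs.

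Defence and pathogenesis-related genes rose in 11 of 39 tested members and fell in 2, of 82 in all, with a median log2 change of 0.62. Of 26 with 1 model, 8 rose and 2 fell. A harpin-induced protein (GRMZM5G862956) had 129 and 141 CPM in pollinated against 41.6 and 42.5 CPM in unpollinated embryo sacs, a log2 change of 1.68 ± 0.15. Glucan endo-1,3-beta-glucosidases, which cut callose and fungal wall glucans, went both ways: GRMZM2G127853 had 16.2 and 21.6 CPM in pollinated against 1.76 and 1.14 CPM in unpollinated embryo sacs, while GRMZM2G088951 fell, to 16.2 and 16.7 CPM in pollinated against 70.6 and 48.9 CPM in unpollinated ones.

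**Figure D4:**
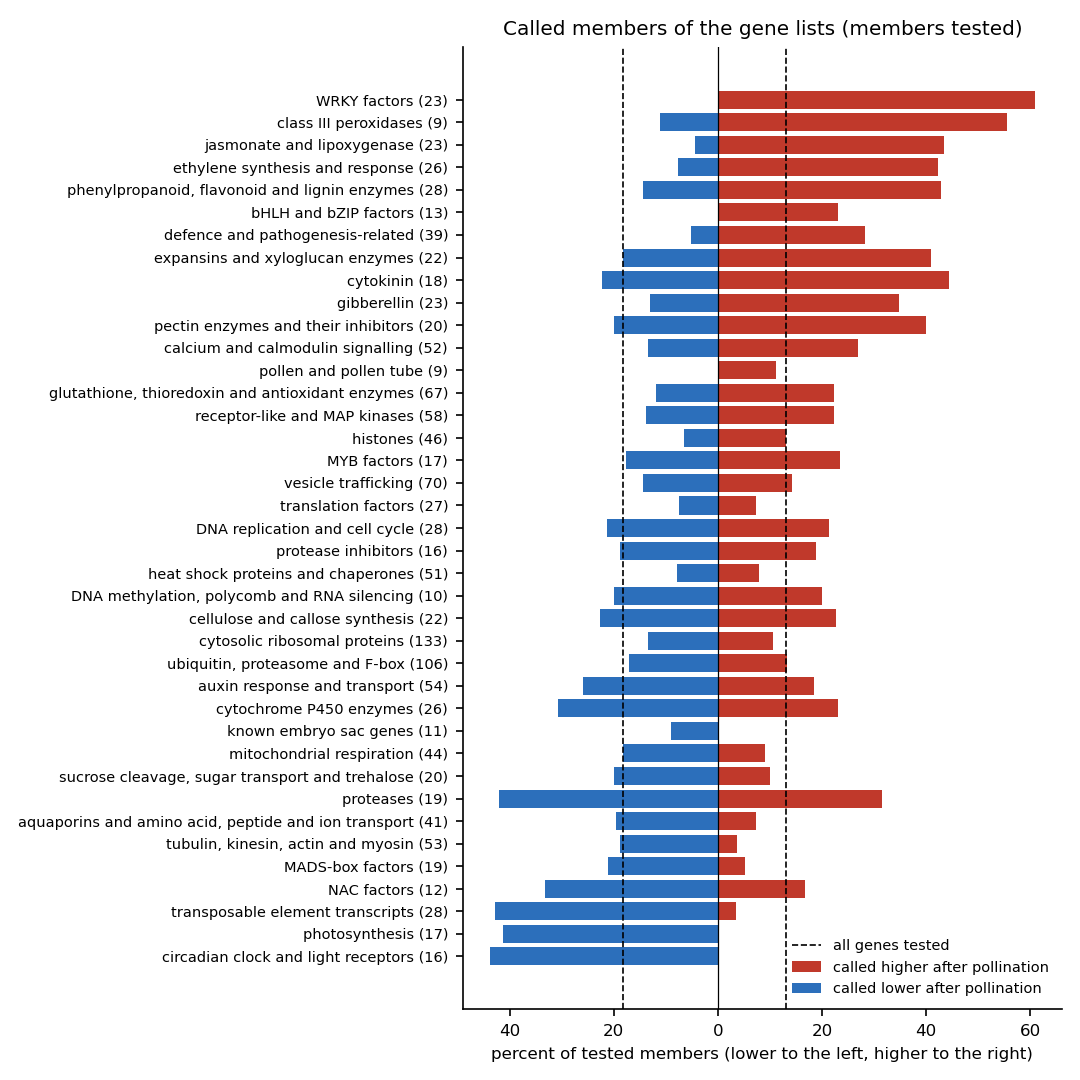
Percent of tested members of each gene list that fell (left of 0) or rose (right of 0) after pollination, with the number of members tested beside each name. WRKY factors stand at 60.9% risen and none fallen, clock and light receptors at 43.8% fallen and none risen, beside 13.1% and 18.2% for all genes.

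Of 7 tested abscisic acid genes, of 9, 2 rose and 2 fell; of 5 with 1 model 2 rose and 1 fell. NCED1, the 9-cis-epoxycarotenoid dioxygenase that makes the precursor of abscisic acid (GRMZM2G014392), had 529 and 519.7 CPM in pollinated against 52.2 and 55.4 CPM in unpollinated embryo sacs. Nucellus held 17.3 and 22.8 CPM, and the log2 change was 3.28 ± 0.13 (adjusted p = 3.91e-51). The abscisic acid response element binding factor GRMZM2G168079 fell, to 39.96 and 29.9 CPM in pollinated against 105 and 99.3 CPM in unpollinated embryo sacs, a log2 change of -1.55 ± 0.17.

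Of 23 tested gibberellin genes, of 37, 8 rose and 3 fell, with a median log2 change of 0.75; of 20 with 1 model, 7 rose and 1 fell. The receptor gene GID1L2 (GRMZM5G831102) had 92.1 and 85.3 CPM in pollinated against 34.6 and 27.3 CPM in unpollinated embryo sacs, a log2 change of 1.51 ± 0.17 (adjusted p = 1.64e-13). The DELLA protein DWARF8 (GRMZM2G144744), a repressor of gibberellin responses, had 13.2 and 17.2 CPM in pollinated against 7.41 and 6.83 CPM in unpollinated embryo sacs. Its log2 change of 1.09 ± 0.33 was 0.88 without pollinated replicate 2, below the threshold. Outside this list, cytochrome P450 88A1 (GRMZM2G093195), the enzyme that makes the first gibberellin from ent-kaurenoic acid, fell, to 3144 and 3225 CPM in pollinated against 6785 and 6749 CPM in unpollinated embryo sacs. It was nearly absent from nucellus, and its log2 change was -1.09 ± 0.10 (adjusted p = 6.21e-18).

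Cytokinin genes rose in 8 of 18 tested members and fell in 4, of 34 in all; of 14 with 1 model 7 rose and 3 fell. Cytokinin oxidases, also described as dehydrogenases, degrade the hormone and were among both, with more risen than fallen. Cytokinin dehydrogenase 4 (GRMZM5G817173) had 235 and 238 CPM in pollinated against 119 and 107 CPM in unpollinated embryo sacs. Its log2 change was 1.07 ± 0.12. Cytokinin oxidase 2 (GRMZM2G050997) had 12.6 and 10.3 CPM in pollinated against 1.06 and 2.28 CPM in unpollinated embryo sacs, and its log2 change of 2.77 ± 0.51 was 3.39 without unpollinated replicate 2. Another cytokinin dehydrogenase, GRMZM2G146644, fell, to 8.60 and 12.3 CPM in pollinated against 24.0 and 25.4 CPM in unpollinated embryo sacs, a log2 change of -1.24 ± 0.29. The response regulator GRMZM2G133262, of the phosphorelay that carries the cytokinin signal, fell more, to 1.01 and 0.981 CPM in pollinated against 10.2 and 15.2 CPM in unpollinated embryo sacs, a log2 change of -3.61 ± 0.55.

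Auxin genes rose in 10 and fell in 14 of 54 tested members, of 90 in all, and those with 1 model split 10 to 10 among 41. The repressor gene IAA5 (GRMZM2G037368) had 47.0 and 39.7 CPM in pollinated against 13.8 and 9.48 CPM in unpollinated embryo sacs, a log2 change of 1.89 ± 0.24 (adjusted p = 1.33e-11). Auxin response factor 27 (GRMZM2G160005) had 199 and 172 CPM in pollinated against 448 and 507 CPM in unpollinated embryo sacs, a log2 change of -1.36 ± 0.11. An auxin efflux carrier (GRMZM2G112598) had 1.01 and 2.94 CPM in pollinated against 38.8 and 48.2 CPM in unpollinated embryo sacs. It rested on few pollinated reads: its log2 change of -4.42 ± 0.36 was -5.37 without pollinated replicate 2.

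Cell wall genes moved in both directions. Of 22 tested expansins and xyloglucan or arabinogalactan genes, of 33, 9 rose and 4 fell; of 12 with 1 model, 6 rose and 1 fell. Expansins loosen walls without cutting them. Alpha-expansin 1 (GRMZM2G339122) had 80.4 and 69.1 CPM in pollinated against 9.18 and 10.6 CPM in unpollinated embryo sacs, a log2 change of 2.91 ± 0.22 (adjusted p = 3.87e-25). Alpha-expansin 5 (GRMZM2G361064) had 26.8 and 30.4 CPM in pollinated against 2.47 and 1.52 CPM in unpollinated embryo sacs, a log2 change of 3.81 ± 0.39. The beta-expansin gene GRMZM2G104013 fell, to 1.52 and 0.49 CPM in pollinated against 12.7 and 7.96 CPM in unpollinated embryo sacs. A fasciclin-like arabinogalactan protein (AC234156.1_FG005), a surface glycoprotein, had 303 and 339 CPM in pollinated against 56.5 and 64.5 CPM in unpollinated embryo sacs, a log2 change of 2.41 ± 0.13 (adjusted p = 3.35e-37).

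Pectin genes rose in 8 of 20 tested members and fell in 4, of 44, with the same counts among the 17 with 1 model. A pectinesterase, PPE8B (GRMZM2G175499), which removes methyl groups from pectin, had 114 and 124 CPM in pollinated against 24.4 and 22.4 CPM in unpollinated embryo sacs, a log2 change of 2.34 ± 0.17 (adjusted p = 2.54e-26). Beside the polygalacturonase inhibitor named above, GRMZM2G174708 had 64.7 and 75.5 CPM and GRMZM2G121312 69.3 and 84.8 CPM in pollinated embryo sacs, against 12.7 and 16.7 CPM and 26.1 and 19.0 CPM in unpollinated ones. Both rose, by a log2 change of 2.26 ± 0.22 and 1.77 ± 0.19.

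Callose synthases, which lay down the glucan of wounded and newly divided walls, moved in opposite directions. Callose synthase 12-like (GRMZM2G418654) had 28.3 and 26.0 CPM in pollinated against 9.53 and 9.48 CPM in unpollinated embryo sacs, a log2 change of 1.51 ± 0.28 (adjusted p = 1.48e-06). For 3 genes described as callose synthase 9-like the change was downward in every library pair. GRMZM2G331861 had 0.506 and 0 CPM in pollinated against 32.5 and 42.5 CPM in unpollinated embryo sacs, the unpollinated level being 149.8 (95% counting interval 26.6 to 5945) times the pollinated one. GRMZM2G473182 had 3.54 and 2.94 CPM and GRMZM2G066352 5.06 and 3.43 CPM in pollinated embryo sacs, against 53.3 and 62.9 CPM and 63.9 and 70.5 CPM in unpollinated ones. Nucellus held more: 70.0 and 70.4 CPM of GRMZM2G331861, 114 and 101 CPM of GRMZM2G473182, and 106 and 84.2 CPM of GRMZM2G066352. Whether these 3 are parts of 1 gene is not given in the descriptions. In the whole list of cellulose and callose synthesis 5 rose and 5 fell of 22 tested, and of 14 with 1 model 4 rose and 3 fell. The cellulose synthase-like gene CSLF3 (GRMZM2G339645) was among the risen ones, at 184 and 179 CPM in pollinated against 60.7 and 68.6 CPM in unpollinated embryo sacs.

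Calcium signalling genes rose in 14 and fell in 7 of 52 tested members, of 81; of 32 with 1 model 11 rose and 4 fell. Calmodulins bind calcium and pass its signal on. Calmodulin 4 (GRMZM2G152891) had 904 and 895 CPM in pollinated against 344 and 348 CPM in unpollinated embryo sacs, a log2 change of 1.38 ± 0.11 (adjusted p = 8.42e-24). The touch-induced calmodulin-related protein 2 (GRMZM2G097900) had 1689 and 1736 CPM in pollinated against 681 and 562 CPM in unpollinated embryo sacs, a log2 change of 1.46 ± 0.11. In contrast, calcium-dependent protein kinase 13-like (GRMZM5G826666) had 2.02 and 2.45 CPM in pollinated against 47.3 and 63.7 CPM in unpollinated embryo sacs and 109.9 and 99.3 CPM in nucellus, a log2 change of -4.60 ± 0.31 (adjusted p = 5.58e-28).

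Receptor-like and MAP kinases rose in 13 and fell in 8 of 58 tested members, of 100; of 47 with 1 model 12 rose and 7 fell. The wall-associated kinase WAK80 (GRMZM2G077655), of a family that spans plasma membrane and wall, had 22.3 and 12.7 CPM in pollinated against 1.76 and 1.14 CPM in unpollinated embryo sacs and none in nucellus, a log2 change of 3.54 ± 0.48. A somatic embryogenesis receptor-like kinase (GRMZM5G870959), a co-receptor family, fell, to 7.08 and 9.81 CPM in pollinated against 30.4 and 33.4 CPM in unpollinated embryo sacs, a log2 change of -1.91 ± 0.28 (adjusted p = 1.68e-09). Vesicle trafficking genes split 10 to 10 among 70 tested, but of 39 with 1 model 8 rose and 4 fell. The risen ones included the Sec15-like exocyst subunit GRMZM5G885285, part of a complex that tethers secretory vesicles, at 280.2 and 297 CPM in pollinated against 102 and 95.2 CPM in unpollinated embryo sacs. A prenylated Rab receptor 2 gene (GRMZM2G089783) changed more, with 755 and 832 CPM in pollinated against 152 and 160.4 CPM in unpollinated embryo sacs, a log2 change of 2.35 ± 0.11 (adjusted p = 2.63e-41).

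Genes of DNA replication and the cell cycle rose and fell in equal number. Of 28 tested, of 45, 6 rose and 6 fell; of 17 with 1 model, 6 rose and 1 fell. The risen ones included enzymes that supply nucleotides and proteins that load or clamp the replication machinery. Ribonucleoside-diphosphate reductase, which makes deoxynucleotides, was represented by GRMZM2G323679 with 192 and 214 CPM and GRMZM2G060163 with 188 and 212 CPM in pollinated embryo sacs, against 56.5 and 62.6 CPM and 81.5 and 66.7 CPM in unpollinated ones. Their log2 changes were 1.77 ± 0.13 and 1.43 ± 0.13. The sliding clamp PCNA (GRMZM2G030523) had 86.5 and 84.8 CPM in pollinated against 33.2 and 34.1 CPM in unpollinated embryo sacs, a log2 change of 1.35 ± 0.17 (adjusted p = 1.96e-11). A minichromosome maintenance gene (GRMZM2G021069), of the replicative helicase, had 181 and 138 CPM in pollinated against 70.9 and 78.5 CPM in unpollinated embryo sacs. Its log2 change of 1.09 ± 0.15 was 0.89 without pollinated replicate 1, below the threshold.

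Among the fallen were DNA polymerase subunits and CDC20 (GRMZM2G063192), an activator of the anaphase-promoting complex. CDC20 had 24.8 and 25.5 CPM in pollinated against 66.4 and 59.2 CPM in unpollinated embryo sacs and 214 and 232 CPM in nucellus, a log2 change of -1.32 ± 0.18 (adjusted p = 1.01e-10). Histones, the proteins that package new DNA, rose in 6 and fell in 3 of 46 tested members, and of 31 with 1 model 5 rose and none fell. Most of the risen ones were H3 genes: GRMZM2G376957 had 100.2 and 94.6 CPM in pollinated against 30.4 and 33.0 CPM in unpollinated embryo sacs, a log2 change of 1.62 ± 0.17 (adjusted p = 3.42e-14). Nucellus held 98.5 and 148 CPM of it, about the pollinated level or above. Histone genes are near-identical copies, so unique reads may miss or split some of them.

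Chromatin regulators numbered 10 tested of 13, with 2 risen and 2 fallen; of 8 with 1 model 2 rose and 1 fell. GRMZM2G025592 is described as DNA (cytosine-5)-methyltransferase 1 and carries the symbol met2. It had 79.4 and 78.9 CPM in pollinated against 31.1 and 37.9 CPM in unpollinated embryo sacs. Nucellus held 205 and 275 CPM, and the log2 change was 1.20 ± 0.16 (adjusted p = 2.91e-10). GRMZM2G333916 and GRMZM2G334041, described as putative cytosine-5 DNA methyltransferase, were not called, at log2 changes of -0.49 and -0.68. An RNA-dependent RNA polymerase (GRMZM2G109787), of the RNA silencing pathway, had 57.7 and 66.7 CPM in pollinated against 20.1 and 23.5 CPM in unpollinated embryo sacs, a log2 change of 1.51 ± 0.20. The polycomb methyltransferase gene EZ1 (GRMZM2G157820), whose complex silences genes through histone H3, had 56.7 and 42.7 CPM in pollinated against 109.8 and 104 CPM in unpollinated embryo sacs. Its log2 change of -1.11 ± 0.15 was -0.91 without pollinated replicate 2, short of the threshold of size. A VEF family gene outside the list and its counts (GRMZM2G157422), the family of the polycomb subunits VRN2, EMF2 and FIS2 of Arabidopsis, had no read in pollinated embryo sacs, 14.8 and 15.5 CPM in unpollinated embryo sacs and 35.6 and 29.9 CPM in nucellus. Against the limit of 3 reads per library that a count of 0 allows, it was at least 10.01-fold lower after pollination.

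The circadian clock showed falls without a rise. In plants the morning factor LHY and the pseudo-response regulators repress each other in turn over the day, and phytochromes and cryptochromes set them by light. Of 20 clock and light receptor genes 16 were tested, none rose and 7 fell, with a median log2 change of -0.87; of 8 with 1 model 4 fell. LHY (GRMZM2G014902) had 8.60 and 10.3 CPM in pollinated against 164 and 165 CPM in unpollinated embryo sacs and 283 and 344 CPM in nucellus. All 4 other libraries held many times the pollinated level, and the log2 change was -4.12 ± 0.19 (adjusted p = 1.09e-42). A gene described as PRR95 (GRMZM2G367834) had 4.05 and 3.43 CPM in pollinated against 13.4 and 12.9 CPM in unpollinated embryo sacs. Nucellus held 100 and 82.5 CPM, and the log2 change was -1.81 ± 0.37. GRMZM2G033962, described as PRR37, had 14.2 and 21.1 CPM in pollinated against 89.7 and 95.9 CPM in unpollinated embryo sacs. Nucellus held 154 and 153 CPM, and the log2 change was -2.39 ± 0.18 (adjusted p = 3.93e-24). A second gene described as PRR37 (GRMZM2G005732) had 10.1 and 11.3 CPM in pollinated against 32.1 and 33.7 CPM in unpollinated embryo sacs. Its nucellus level was 48.3 and 49.8 CPM, and its log2 change was -1.62 ± 0.25 (adjusted p = 1.77e-08).

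The photoperiod gene constans1 (GRMZM2G405368) had 4.55 and 2.94 CPM in pollinated against 21.2 and 43.6 CPM in unpollinated embryo sacs. In nucellus it had 79.1 and 81.4 CPM. Its unpollinated libraries differed, and the log2 change of -3.09 ± 0.34 was -2.49 without unpollinated replicate 2. Cryptochrome 2 (GRMZM2G104262) and EARLY flowering 4 (GRMZM2G359322) fell on few reads and lost the call when 1 library was left out: cryptochrome 2 was -1.89 without unpollinated replicate 1, and EARLY flowering 4 was -1.61 without unpollinated replicate 2 and -1.68 without pollinated replicate 2, all at an adjusted p above 0.05. The evening gene TOC1b (GRMZM2G148453) was not called, at 16.2 and 16.7 CPM in pollinated against 27.2 and 24.6 CPM in unpollinated embryo sacs. Phytochrome A1 (GRMZM2G157727), a red light receptor, was not called either, at 173 and 178 CPM in pollinated against 304 and 290.5 CPM in unpollinated embryo sacs. Since no label gives the time of day at which ovules were taken, pollination and time of day cannot be told apart in these genes.

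**Figure D5:**
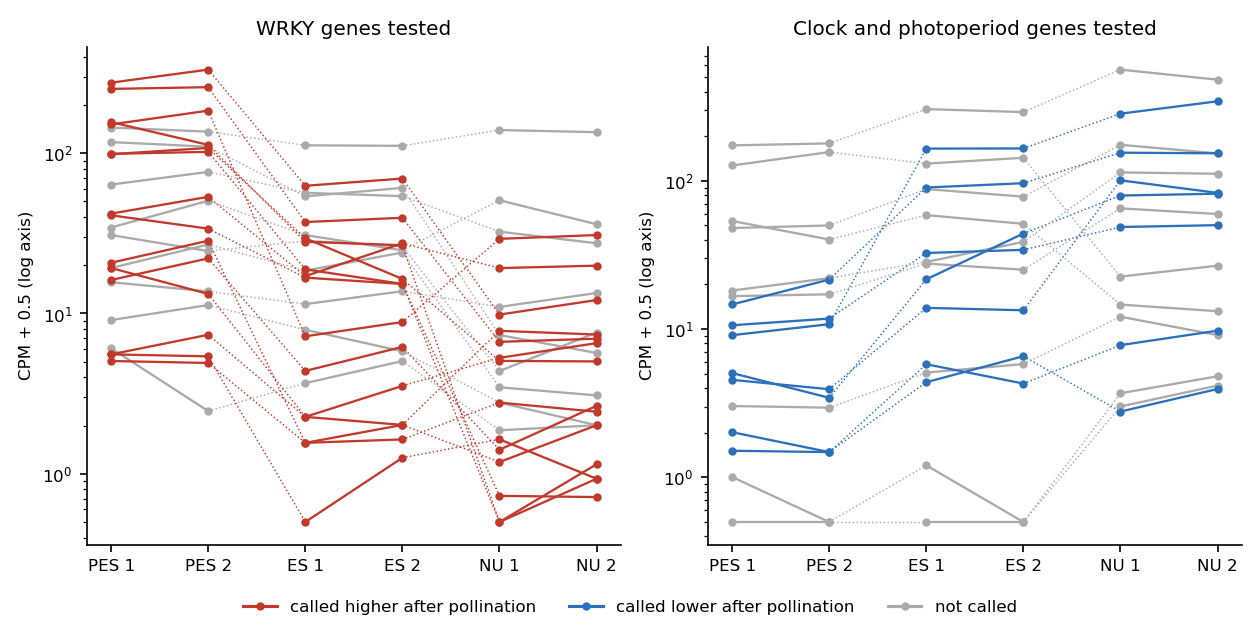
CPM plus 0.5 (log axis) of the tested WRKY genes and of the clock and light receptor genes in the 2 pollinated (PES), 2 unpollinated (ES) and 2 nucellus (NU) libraries, 1 line per gene. Most WRKY lines lie higher in the pollinated than in the unpollinated libraries, and the LHY line lies at 8.60 and 10.3 CPM there against 164 and 165 CPM in the unpollinated ones.

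Many photosynthesis genes had too few reads to test. Of 57, 17 were tested, none rose and 7 fell, with a median log2 change of -1.02; of 16 with 1 model none rose and 6 fell. In all, 30 had no read in pollinated embryo sacs. The photosystem II M protein gene GRMZM2G055151 had 14.7 and 22.6 CPM in pollinated against 62.1 and 55.7 CPM in unpollinated embryo sacs, a log2 change of -1.66 ± 0.20 (adjusted p = 1.68e-12). Transposable element transcripts numbered 56, of which 28 were tested, 1 rose and 12 fell; of 15 with 1 model 1 rose and 7 fell. A RIRE1 polyprotein gene (GRMZM2G329962) had 10.6 and 10.8 CPM in pollinated against 44.8 and 50.1 CPM in unpollinated embryo sacs, a log2 change of -2.14 ± 0.24 (adjusted p = 5.05e-14). The one that rose, GRMZM2G074761, had 16.2 and 14.2 CPM in pollinated against 2.12 and 2.28 CPM in unpollinated embryo sacs. Only unique reads were counted, so repeated copies may be under-represented in these values.

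The largest falls with a described product were in genes that most often stayed high in nucellus. A biopterin transport-related gene, BT1 (GRMZM2G145886), had no read in pollinated, 14.8 and 16.3 CPM in unpollinated embryo sacs and 54.9 and 45.2 CPM in nucellus. It was at least 10.3-fold lower after pollination. An actin gene (GRMZM2G478779) had 0.506 and 1.96 CPM in pollinated against 43.8 and 55.4 CPM in unpollinated embryo sacs. Its log2 change of -5.27 ± 0.36 was -4.63 without pollinated replicate 1 and -6.50 without pollinated replicate 2. A putative vesicle associated membrane protein gene (GRMZM2G164224) had 1.01 and 0.981 CPM in pollinated against 26.5 and 29.6 CPM in unpollinated embryo sacs, a log2 change of -4.76 ± 0.45 (adjusted p = 7.79e-18). CYP714B3 (GRMZM2G106408), of a P450 family that hydroxylates gibberellins in rice, had 0 and 0.49 CPM in pollinated against 21.5 and 14.4 CPM in unpollinated embryo sacs and 19.2 and 19.8 CPM in nucellus. The ratio of unpollinated over pollinated was 72.7 (95% counting interval 12.7 to 2899.7).

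A smaller group of falls was in genes absent from nucellus. Legumin 1 (GRMZM2G174883), a seed storage globulin, had 1.01 and 0.49 CPM in pollinated against 67.8 and 56.1 CPM in unpollinated embryo sacs and no read in nucellus. The unpollinated level was 83.2 (95% counting interval 28.2 to 406) times the pollinated one. The O-methyltransferase ZRP4 (GRMZM2G017557) had 0 and 1.47 CPM in pollinated against 34.2 and 30.7 CPM in unpollinated embryo sacs, a ratio of 43.6 (95% counting interval 14.7 to 213) of unpollinated over pollinated. Protein P21 (GRMZM2G039639), a thaumatin-like protein, had 1.01 and 0 CPM in pollinated against 14.8 and 19.0 CPM in unpollinated embryo sacs, a ratio of 33.8 (95% counting interval 9.09 to 283).

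Of 53 tested cytoskeleton genes, of 85, 2 rose and 10 fell, and of 30 with 1 model 2 rose and 7 fell. The 18.9% that fell is near the background of 18.2%, while the 3.77% that rose lies below the background of 13.1%. The fallen ones included 3 actins beside tubulins. Actin-7 (GRMZM2G437445) had 21.2 and 18.6 CPM in pollinated against 78.7 and 71.3 CPM in unpollinated embryo sacs, a log2 change of -1.91 ± 0.19 (adjusted p = 2.5e-16). Beta-tubulin 17 (GRMZM5G856071) had 3.54 and 5.39 CPM in pollinated against 28.2 and 26.9 CPM in unpollinated embryo sacs, a log2 change of -2.61 ± 0.31. An actin depolymerizing factor (GRMZM2G071327), which severs actin filaments, had 6.07 and 6.86 CPM in pollinated against 88.2 and 74.3 CPM in unpollinated embryo sacs and was near 0 in nucellus, a log2 change of -3.64 ± 0.25 (adjusted p = 3.59e-27). The summed level of the list was higher, at 7779 and 8242 CPM in pollinated against 5630 and 5378 CPM in unpollinated embryo sacs.

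Proteases moved in both directions. Of 19 tested, of 35, 6 rose and 8 fell, but of 14 with 1 model 6 rose and 4 fell. The aspartic protease nepenthesin-1 (GRMZM2G468657) had 298 and 264 CPM in pollinated against 51.2 and 42.8 CPM in unpollinated embryo sacs, a log2 change of 2.58 ± 0.13 (adjusted p = 3.72e-38). Another aspartic protease, oryzasin-1 (GRMZM2G153977), fell, to 137 and 154 CPM in pollinated against 634 and 552 CPM in unpollinated embryo sacs, a log2 change of -2.03 ± 0.12. Cysteine proteinase 2 (GRMZM5G820822) had 18.2 and 12.7 CPM in pollinated against 129 and 104 CPM in unpollinated embryo sacs, a log2 change of -2.91 ± 0.19 (adjusted p = 7.03e-30). On the side of the inhibitors, a cystatin (GRMZM2G148925), which blocks cysteine proteases, had 1039 and 1117 CPM in pollinated against 348 and 297 CPM in unpollinated embryo sacs, a log2 change of 1.74 ± 0.11. A cysteine proteinase inhibitor (GRMZM2G012160) fell, to 128 and 152 CPM in pollinated against 312 and 315 CPM in unpollinated embryo sacs. So did a trypsin inhibitor (AC208221.3_FG002), to 7.59 and 9.81 CPM in pollinated against 69.9 and 49.7 CPM in unpollinated ones. In the inhibitor list 3 rose and 3 fell of 16 tested, and of 13 with 1 model 3 rose and 2 fell.

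Of 41 tested transporters 3 rose and 8 fell, and of 29 with 1 model 2 rose and 4 fell. Of 20 tested sugar genes 2 rose and 4 fell, and of 9 with 1 model 1 rose and 1 fell. The 19.5% of transporters that fell is near the background of 18.2%. The plasma membrane aquaporin PIP2-2 (GRMZM2G092125) had 31.9 and 27.5 CPM in pollinated against 191 and 174 CPM in unpollinated embryo sacs, a log2 change of -2.62 ± 0.15 (adjusted p = 1.71e-33). Phosphate transporter 2 (GRMZM2G154090) had 57.2 and 51.5 CPM in pollinated against 5.65 and 4.93 CPM in unpollinated embryo sacs, a log2 change of 3.35 ± 0.28. Sucrose synthase 2 (GRMZM2G318780), which cleaves sucrose, fell, to 4.05 and 5.39 CPM in pollinated against 19.1 and 26.5 CPM in unpollinated embryo sacs, a log2 change of -2.25 ± 0.34 (adjusted p = 6.53e-09). A trehalose-phosphate phosphatase (GRMZM2G178546), the last step of trehalose synthesis, had 48.6 and 32.4 CPM in pollinated against 181 and 163 CPM in unpollinated embryo sacs, a log2 change of -2.09 ± 0.15.

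Other transcription factor families changed in small numbers. NAC factors rose in 2 and fell in 4 of 12 tested, and of 11 with 1 model 2 rose and 4 fell. MYB factors rose in 4 and fell in 3 of 17, and of 13 with 1 model 4 rose and 2 fell. Of 13 bHLH and bZIP factors 3 rose and none fell, all 3 with 1 model. MADS-box factors, homeotic regulators of the flower and ovule, rose in 1 and fell in 4 of 19 tested, with a median log2 change of -0.65; of 9 with 1 model none rose and 2 fell. An AGAMOUS-like gene (GRMZM2G359952), of the class that specifies carpels and ovules, had 16.2 and 13.2 CPM in pollinated against 4.24 and 4.17 CPM in unpollinated embryo sacs and 50.6 and 43.3 CPM in nucellus, a log2 change of 1.80 ± 0.35 (adjusted p = 6.81e-06). MADS-box factor 22 (GRMZM2G046885) fell, to 18.2 and 14.2 CPM in pollinated against 49.4 and 49.3 CPM in unpollinated embryo sacs, a log2 change of -1.61 ± 0.23. MYB9 (GRMZM2G088783) rose, to 19.7 and 13.7 CPM in pollinated against 3.18 and 1.14 CPM in unpollinated embryo sacs, a log2 change of 2.91 ± 0.43 that was 3.82 without unpollinated replicate 1.

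The remaining groups are given by their counts. Cytosolic ribosomal proteins rose in 14 and fell in 18 of 133 tested, and in 9 and 11 of 63 with 1 model. Ubiquitin and proteasome genes rose in 14 and fell in 18 of 106 tested, and in 9 and 9 of 62 with 1 model. Respiration genes rose in 4 and fell in 8 of 44 tested, and in 2 and 7 of 30 with 1 model. Translation factors rose in 2 and fell in 2 of 27 tested, and in 0 and 2 of 13 with 1 model. Heat shock proteins and chaperones rose in 4 and fell in 4 of 51 tested, and in 4 and 4 of 35 with 1 model. In translation factors and heat shock proteins the shares of 7.41% and 7.84% in each direction lay below the backgrounds of 13.1% and 18.2%. Glutathione, thioredoxin and antioxidant enzymes rose in 15 and fell in 8 of 67 tested, and in 11 and 4 of 37 with 1 model. Cytochrome P450 enzymes rose in 6 and fell in 8 of 26 tested, and in 5 and 6 of 22 with 1 model. A thioredoxin reductase gene (GRMZM5G841142) had 184 and 262 CPM in pollinated against 48.0 and 64.1 CPM in unpollinated embryo sacs, a log2 change of 1.995 ± 0.14 (adjusted p = 2.37e-22). CYP81A9 (GRMZM2G090432), in a P450 family that detoxifies herbicides in maize, had 154 and 114 CPM in pollinated against 27.2 and 21.2 CPM in unpollinated embryo sacs, a log2 change of 2.46 ± 0.17. Lipid transfer proteins rose in 2 and fell in 1 of 7 tested, and in 2 and 0 of 6 with 1 model. Storage and dehydration proteins, a list that does not hold legumin 1 described above, rose in 1 and fell in none of 7 tested, and none of 5 with 1 model was called.

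Genes among the 10 most abundant in either embryo sac group also changed, and none of those named here had a protein name. GRMZM2G128268 had 7332 and 7272 CPM in pollinated against 1817 and 1595 CPM in unpollinated embryo sacs, a log2 change of 2.10 ± 0.11 (adjusted p = 3.8e-39). GRMZM2G079962 had 1817 and 1918 CPM in pollinated against 16326 and 16852 CPM in unpollinated embryo sacs and was near 0 in nucellus, a log2 change of -3.15 ± 0.11 (adjusted p = 1.18e-55). GRMZM2G128832 had 309 and 273 CPM in pollinated against 7985 and 7246 CPM in unpollinated embryo sacs, a log2 change of -4.71 ± 0.12. In contrast, GRMZM2G168651 was not called, at 39802 and 46767 CPM in pollinated against 25866 and 31964 CPM in unpollinated embryo sacs, nor was GRMZM2G149930, at 16612 and 16451 CPM in pollinated against 24769 and 28197 CPM in unpollinated ones.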

How the data were processed

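Counts were taken as deposited by the authors, 1 table per library, which per the file headers give unique reads for each transcript model. The same tables hold RPKM values and the percent of model length covered, deposited by the authors; RPKM entered an alternative test and coverage percent a description. Which aligner, build and annotation were used is not given in the sources used here. Gene names were taken from the descriptions in the tables, or, where these were uninformative, from the RefSeq genes of Zm-B73-REFERENCE-NAM-5.0.

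Models were summed per gene, and the 6 libraries were fitted together by group by edgeR 4.0.16 (R 4.3.3), using filterByExpr, TMM and robust quasi-likelihood tests. Tested on simulated counts for this comparison (15660 genes), the fit recovered 83.2% of genes changed by 1.5 and 97.8% of those changed by 3 on the log2 scale, with 3 false among 172 calls. Recovery was counted over the 95 and 92 changed genes that passed the filter. The simulation changed few genes, equally up and down, whereas 31.4% of the genes tested were called here, more of them lower. It therefore does not give the share of false calls among these. Alternatives used DESeq2 1.42.0, limma 3.58.1 on log2(RPKM + 1), other filters, scalings and units, and each embryo sac library left out. Replicates of a group differed by more than sampling noise, and none was merged. With 2 libraries per group, p-values rest on the spread within all groups, nucellus included, and this estimate is partly shared across genes. They measure no spread beyond these libraries.

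Gene lists, 43 in all, were search patterns on descriptions of any of a gene's models. Named genes were drawn from the 12 largest described changes in each direction, at 10 CPM or more with groups that do not overlap. They were also drawn from the 2 list members with the smallest p in each direction. Known embryo sac genes and the 10 most abundant genes of each group were further sources, and 29 further genes were added after their values were seen. The text gives a part of these, so a list member with a smaller p than one named can be missing. Members and lists were chosen with earlier results of these data known. For genes with 1 to 3 reads in the lower group, the ratio of levels is given with its 95% counting interval; for 0 reads, a bound at 3 reads per library. Intervals and floors cover counting error only.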

Additional observations from a re-analysis of the deposited data

How the results depend on the processing

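Every alternative kept both counts of genes within 1.5 times, except that dropping the minimum change raised the number higher to 4553. Leaving out 1 embryo sac library gave 2142 to 2468 genes higher and 2811 to 3168 lower. DESeq2 called 2154 higher and 2321 lower, so 48.1% of its calls were higher, and limma on RPKM 1824 and 3792, 32.5% higher. In no setting that could be compared gene by gene was a gene called in the opposite direction. Replicate numbers are shared only as numbers: the deviations of equally numbered embryo sac libraries correlated at 0.0049, and the replicate block gave 2364 and 3251. Of the named genes under alternatives, 2308 values kept their side of the threshold, 66 lost it, 7 gained it and 2 changed sign. Both concerned the log2 change of GRMZM2G129157, not called, at -0.0215 with limma and -0.0242 with total counts. With total counts the median change of the histone and replication lists was -0.01 each. Groups at a few CPM rest on few reads, which limits their precision. Promoter motifs were planned and not run; promoter sequences were not used here.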
